A study of Homo sapiens with 24 samples.

Results

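The genes described here are 36 genes of mitosis and cell division, among them the mitotic cyclins and kinases, the checkpoint and kinetochore proteins, and the proteins of the spindle midzone and the cleavage furrow. They were taken by name from the array annotation, with earlier results of these data known. All 36 were measured, out of 18417 genes with a probe set (a group of array probes read as one value) that carries a single gene symbol. BIRC5 has a second probe set, and the brighter of the pair was used. The cells were HEK293T, a transformed line of human embryonic kidney origin, harvested at 24 or 6 h after transfection and read on 24 Affymetrix expression arrays, 3 for each of 8 groups. FMR4siRNA cells received 40 nM of an siRNA against FMR4, a long noncoding RNA made from the antisense strand at the FMR1 locus, and CTLsiRNA cells the same amount of a control siRNA, both with Lipofectamine RNAiMAX. FMR4pcDNA cells received 0.5 µg of a pcDNA3.1 plasmid that carries FMR4, and CTRLpcDNA cells the same amount of the plasmid without it, both with Lipofectamine 2000CD. Every array is 1 biological replicate pooled from 3 technical ones. The sources do not say whether these replicates were separate cultures, so the p-values measure only the spread between arrays, and the number of arrays limits the precision. FMR4 itself has no named probe set, so the extent of its knockdown or overexpression was not read.

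Entry into mitosis is driven by CDK1 bound to cyclin B, which the CDC25 phosphatases switch on and the Polo and Aurora kinases reinforce. The outer kinetochore then binds spindle microtubules, the checkpoint holds anaphase until every chromosome is attached, and CDC20 lets the anaphase-promoting complex release separase. After chromosomes part, PRC1 bundles the midzone microtubules and ANLN, ECT2, RACGAP1 and CEP55 build and cut the bridge between the daughter cells. Most of these genes are transcribed late in the cell cycle, through promoter elements read by the DREAM complex, by B-MYB with FOXM1, and by NF-Y. In RNA from a whole culture, fewer cells in mitosis and less RNA of a gene per cell cannot be told apart.

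All values are log2 expression as deposited, so that a difference of 1 is a doubling. The mean over 24 arrays lay between 8.80 for CDC25C and 12.40 for PLK1. All 36 genes were above 6.00, the upper quartile of 429 olfactory receptor and keratin-associated protein genes that these cells should not express. The array medians lay between 7.43 and 7.53, and 7 of 7 measured markers of HEK293 cells were above the same level. Of 13 measured markers of other cell types, 9 were also above it, the highest being COL1A1 at 8.31, while PTPRC, PECAM1, DCN and ALB were below, and the part of such cells in the results was not tested. MKI67, a marker of dividing cells, was called in none of the 13 comparisons made, with an adjusted p of 0.202 for FMR4siRNA against CTLsiRNA at 24 h.

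The promoters of the genes share letters, though the genes were chosen by name and not by these letters. As most of them are known to be transcribed through such elements, the shares below describe the list and are no test of it. RefSeq promoter windows (GRCh38.p14, 250 bases before and 50 after the start of transcription) were at hand for 31 of the 36 genes. TTTGAA, the core of the element called CHR that the DREAM complex reads, stood on either strand in the windows of 23 of 31 genes (74.2%), against 18.2% of all 27305 genes with a window. CCAAT, the box bound by NF-Y, stood in 26 of 31 (83.9%), against 39.7% of all genes. The related TTCGAA stood in 3 of 31, against 1.82%. Of the 14 members that rose between 6 and 24 h in CTLsiRNA cells, 10 have a window and 8 of these hold TTTGAA, as do 15 of the other 21. A match is a run of letters and not a measured binding site. The following 6 stretches, from 100 bases before to 50 after the start, are shown because they belong to the genes that differed with FMR4siRNA at 24 h (PRC1 at chr15:90994486-90994635, minus strand; ANLN at chr7:36389762-36389911, plus strand; CEP55 at chr10:93496512-93496661, plus strand; BUB1 at chr2:110678014-110678163, minus strand) and to a pair that rose with time in both siRNA treatments (CDC25C at chr5:138331755-138331904, minus strand; NDC80 at chr18:2571457-2571606, plus strand). They are written 5′ to 3′ on the strand of the gene, with every match to the 3 sets of letters, or to their reverse complements, in capitals.
PRC1: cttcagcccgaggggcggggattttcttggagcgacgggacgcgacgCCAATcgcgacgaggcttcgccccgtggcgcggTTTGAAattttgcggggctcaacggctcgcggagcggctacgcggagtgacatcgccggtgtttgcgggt
ANLN: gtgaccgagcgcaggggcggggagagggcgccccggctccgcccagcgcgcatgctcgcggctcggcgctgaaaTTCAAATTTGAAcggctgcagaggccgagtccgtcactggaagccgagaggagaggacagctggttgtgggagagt
CEP55: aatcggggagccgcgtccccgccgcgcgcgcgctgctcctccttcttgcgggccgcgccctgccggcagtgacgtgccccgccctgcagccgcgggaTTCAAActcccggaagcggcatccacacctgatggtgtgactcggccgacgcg
BUB1: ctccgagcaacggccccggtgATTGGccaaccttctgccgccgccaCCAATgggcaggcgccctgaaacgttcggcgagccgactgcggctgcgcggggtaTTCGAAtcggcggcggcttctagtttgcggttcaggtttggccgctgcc
CDC25C: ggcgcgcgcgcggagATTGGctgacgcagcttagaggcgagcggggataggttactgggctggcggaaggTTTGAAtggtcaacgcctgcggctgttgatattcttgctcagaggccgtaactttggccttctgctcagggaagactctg
NDC80: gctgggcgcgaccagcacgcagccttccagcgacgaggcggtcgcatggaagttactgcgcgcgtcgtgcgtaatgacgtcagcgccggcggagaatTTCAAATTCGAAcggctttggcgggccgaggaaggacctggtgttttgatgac

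TTTGAA began 20 bases before the start in PRC1 and 30 before it in CDC25C, which has 4 windows in the table, of which the one with TTTGAA nearest the start is shown. ANLN held it on both strands side by side, at 26 and 20 bases before the start. In CEP55 and NDC80 the reverse complement began 3 bases before the start, and in NDC80 a TTCGAA followed it directly. BUB1 held no TTTGAA but a TTCGAA at position 2 and 2 CCAAT boxes. The 8 genes with a window but without TTTGAA were AURKB, BUB1, CCNA2, CCNB1, CDC25B, CENPE, PTTG1 and SPC24.

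The clearest pattern in the values was with time in the siRNA arm. At 24 h relative to 6 h, 10 of the 36 genes rose and 1 fell in FMR4siRNA cells, and 14 rose and 1 fell in CTLsiRNA cells. Those that rose included CDC25C, the outer kinetochore genes NDC80, SPC24 and CENPF, the separase gene ESPL1 and the spindle gene DLGAP5, by 0.23 to 0.55 on the log2 scale in both treatments. Without FMR4siRNA 6 h replicate 3, the FMR4siRNA values of these 6 genes were 0.14 to 0.38, and CENPF was no longer called. A gene counts as risen or fallen at an adjusted p under 0.05 (limma, 1 mean per group over all 24 arrays, Benjamini-Hochberg adjustment within a comparison). The risen members were 27.8% of the list in FMR4siRNA cells, where 12.3% of all genes rose, and 38.9% in CTLsiRNA cells, where 9.8% of all genes rose. The fallen member was 2.78% of the list each time, where 4.37% of all genes fell in FMR4siRNA cells and 8.75% in CTLsiRNA cells. As the list was chosen with earlier results of these data known, these shares describe it and are no test of it. The median over the members was 0.12 with FMR4siRNA (0.01 over all genes) and 0.16 with CTLsiRNA (−0.01 over all genes), and 28 of the 36 differences were positive in each. The treatments share no arrays in these comparisons, and 9 genes rose in both, which is 90% of the FMR4siRNA list and 64.3% of the CTLsiRNA list. In a fit to the 6 FMR4siRNA arrays alone no member was called (0 of 36), and without FMR4siRNA 24 h replicate 2 there were 6 calls, without FMR4siRNA 6 h replicate 1 there were 18. Without CTLsiRNA 6 h replicate 3, or without CTLsiRNA 24 h replicate 1, the CTLsiRNA calls numbered 9 in place of 15. The shares of all genes called in these other fits were not counted. Whichever 1 array was left out, 6 of the 11 FMR4siRNA calls stayed (CDC25C, NDC80, SPC24, ESPL1, DLGAP5 and CDK1), as did 7 of the 15 CTLsiRNA calls (CDC25C, NDC80, CENPF, DLGAP5, HMMR, TPX2 and TTK). The others were lost without at least 1 array, among them CENPF (adjusted p of up to 0.166) and TTK (up to 0.208) in FMR4siRNA cells and ESPL1 (up to 0.136) and AURKA (up to 0.114) in CTLsiRNA cells.

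**Figure D1:**
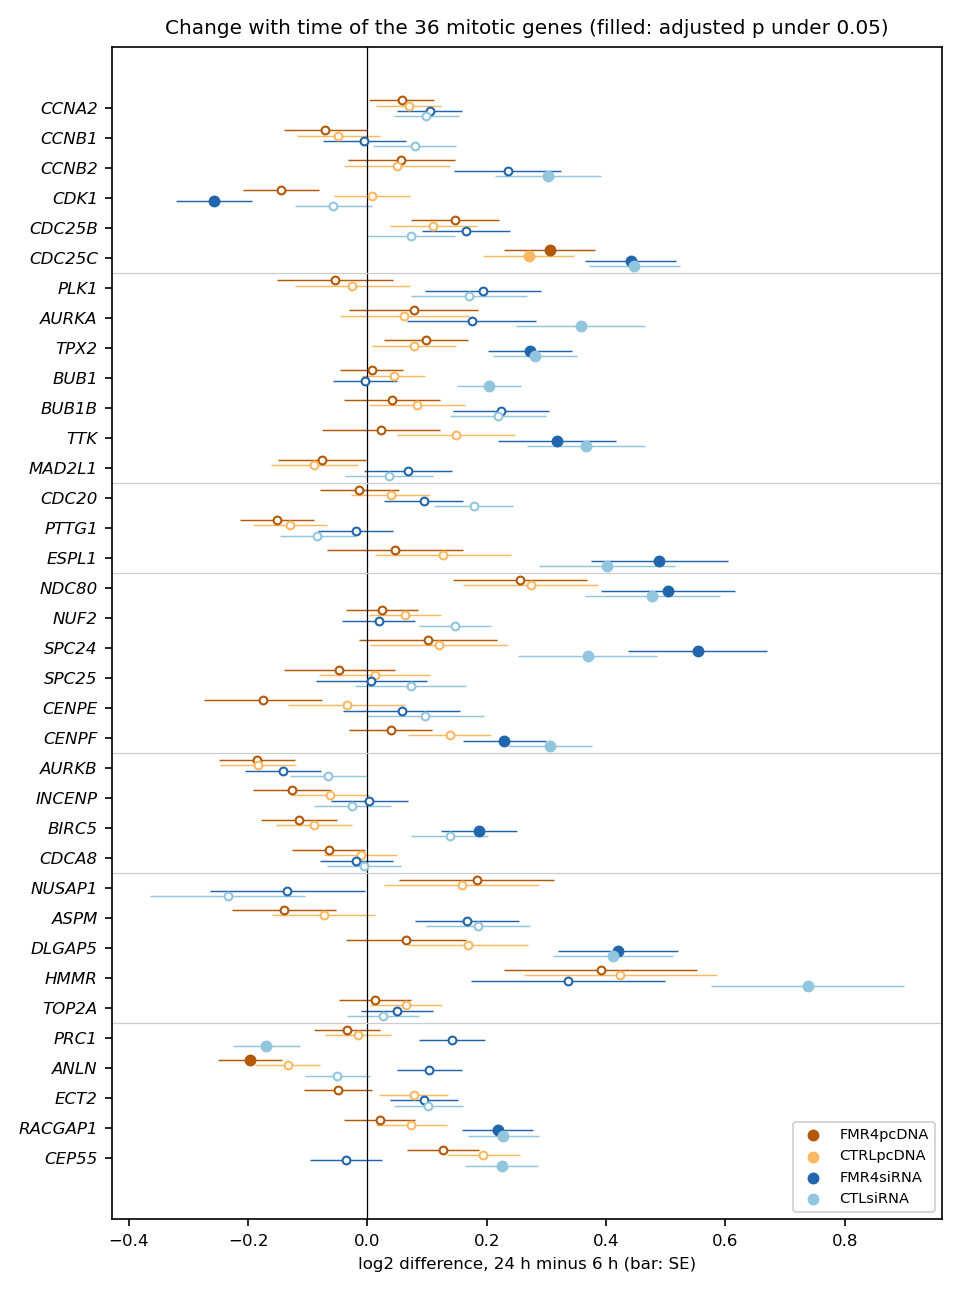
Log2 difference between 24 h and 6 h of the 36 mitotic genes (rows, grouped by role from cyclins at the top to cytokinesis at the bottom) in FMR4pcDNA, CTRLpcDNA, FMR4siRNA and CTLsiRNA cells, with SE bars and filled points where the adjusted p is under 0.05. The filled points lie mostly in the siRNA treatments and to the right of 0, with CDC25C filled in all 4 treatments.

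Among the cyclins, CDK1 and its CDC25 phosphatases, CDC25C was the 1 member called in every treatment. Its log2 expression in FMR4siRNA cells was 8.97, 9.08 and 8.86 at 24 h, against 8.68, 8.50 and 8.40 at 6 h, a rise of 0.44 (SE 0.0765, 1.36-fold, limma adjusted p = 0.000515). In CTLsiRNA cells it was 9.09, 8.97 and 9.00 at 24 h and 8.54, 8.64 and 8.55 at 6 h, a rise of 0.45 (adjusted p = 0.000421). No array at 24 h fell below an array at 6 h of the same treatment. Such a lack of overlap, in either direction, was seen for 4117 of all 18417 genes in FMR4siRNA cells and 6805 in CTLsiRNA cells. CCNB2, a B-type cyclin, rose by 0.30 in CTLsiRNA cells (adjusted p = 0.0211), and its value in FMR4siRNA cells was 0.23. CDK1 moved the other way in FMR4siRNA cells, with 10.41, 10.32 and 10.19 at 24 h against 10.50, 10.57 and 10.62 at 6 h, so that it fell by 0.26 (SE 0.0639, adjusted p = 0.00807). In CTLsiRNA cells its arrays overlapped, with 10.47, 10.45 and 10.42 at 24 h and 10.44, 10.44 and 10.63 at 6 h. CCNA2, CCNB1 and CDC25B were not called in either siRNA treatment, with values between −0.01 and 0.17.

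The genes of the outer kinetochore, the layer that holds the microtubule, split into 3 that rose in both siRNA treatments and 3 that were called in neither. NDC80 encodes the microtubule-binding subunit that gives its complex the name. It stood at 9.76, 9.92 and 9.67 at 24 h and 9.62, 9.28 and 8.93 at 6 h in FMR4siRNA cells, a rise of 0.50 (SE 0.113, adjusted p = 0.00397). The 6 h arrays of that treatment were spread widely, and replicate 3 was the lowest of all 24. Without that array the rise was 0.33 (adjusted p = 0.0269). In CTLsiRNA cells NDC80 had 9.80, 9.70 and 9.85 at 24 h and 9.27, 9.37 and 9.28 at 6 h, a rise of 0.48 (adjusted p = 0.00555). SPC24, of the end of the complex that faces the chromosome, gave 9.73, 9.78 and 9.69 at 24 h and 9.46, 9.31 and 8.78 at 6 h in FMR4siRNA cells, a rise of 0.55 (adjusted p = 0.00227), or 0.35 without replicate 3 at 6 h (adjusted p = 0.0103). In CTLsiRNA cells it gave 9.52, 9.69 and 9.44 at 24 h and 9.11, 9.40 and 9.03 at 6 h, a rise of 0.37 (adjusted p = 0.03), a call that was lost without any 1 of 4 of the 6 arrays. Neither gene's arrays overlapped between times.
CENPF, a large protein of the outer kinetochore corona, had 11.58, 11.60 and 11.45 at 24 h and 11.44, 11.37 and 11.13 at 6 h in FMR4siRNA cells (rise of 0.23, adjusted p = 0.0278), and without replicate 3 at 6 h the value was 0.14 (adjusted p = 0.166). Its CTLsiRNA arrays read 11.64, 11.56 and 11.58 at 24 h, against 11.30, 11.29 and 11.28 at 6 h (rise of 0.31, adjusted p = 0.00421). The partners NUF2 and SPC25 and the kinetochore motor CENPE were not called, with 0.02, 0.01 and 0.06 in FMR4siRNA cells and 0.15, 0.07 and 0.10 in CTLsiRNA cells.

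Of the mitotic kinases and checkpoint genes, TPX2 and TTK rose in both siRNA treatments. TPX2, which activates Aurora A on spindle microtubules, rose by 0.27 with FMR4siRNA and 0.28 with CTLsiRNA. TTK, the checkpoint kinase also called MPS1, rose by 0.32 with FMR4siRNA and 0.37 with CTLsiRNA, though its FMR4siRNA arrays overlapped between times. Both FMR4siRNA calls were lost without FMR4siRNA 6 h replicate 3, at 0.16 for TPX2 (adjusted p = 0.0613) and 0.15 for TTK (adjusted p = 0.208). AURKA and the checkpoint kinase BUB1 rose in CTLsiRNA cells, by 0.36 (limma adjusted p = 0.0252) and 0.20 (limma adjusted p = 0.01). In FMR4siRNA cells AURKA was at 0.17, and BUB1 read 11.52, 11.49 and 11.44 at 24 h and 11.52, 11.58 and 11.36 at 6 h. BUB1 in CTLsiRNA cells stood at 11.69, 11.67 and 11.66 at 24 h and 11.49, 11.50 and 11.43 at 6 h. PLK1, the checkpoint protein BUB1B and MAD2L1 were not called, with 0.19, 0.22 and 0.07 with FMR4siRNA and 0.17, 0.22 and 0.04 with CTLsiRNA.

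Among the anaphase genes, ESPL1, the separase that cuts cohesin, rose in both treatments. It had 10.08, 10.13 and 10.14 at 24 h and 9.88, 9.75 and 9.26 at 6 h in FMR4siRNA cells, a rise of 0.49 (SE 0.114, adjusted p = 0.00511), or 0.30 without replicate 3 at 6 h (adjusted p = 0.0318). In CTLsiRNA cells it had 10.05, 10.01 and 10.02 at 24 h and 9.67, 9.82 and 9.39 at 6 h, a rise of 0.40 (adjusted p = 0.0169). The arrays at 24 h lay close together and above all arrays at 6 h in both. Its inhibitor securin, PTTG1, was not called, at −0.02 with FMR4siRNA and −0.08 with CTLsiRNA, nor was CDC20, at 0.09 with FMR4siRNA and 0.18 with CTLsiRNA.

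HMMR, a spindle and hyaluronan-binding protein, had the largest difference of any member in CTLsiRNA cells and the widest spread in FMR4siRNA cells. Its CTLsiRNA arrays read 10.18, 10.22 and 10.06 at 24 h and 9.32, 9.52 and 9.42 at 6 h, a rise of 0.74 (SE 0.162, 1.67-fold, adjusted p = 0.00311). Its FMR4siRNA arrays read 9.94, 9.88 and 9.81 at 24 h and 10.01, 9.73 and 8.89 at 6 h, so that replicate 1 at 6 h was above every array at 24 h and replicate 3 was far below. DLGAP5, which stabilizes kinetochore microtubules, gave 11.32, 11.32 and 11.33 at 24 h and 11.14, 11.08 and 10.49 at 6 h in FMR4siRNA cells, a rise of 0.42 (SE 0.101, adjusted p = 0.0064), or 0.21 without replicate 3 at 6 h (adjusted p = 0.0128). In CTLsiRNA cells it gave 11.33, 11.30 and 11.31 at 24 h and 10.94, 10.92 and 10.85 at 6 h, a rise of 0.41 (adjusted p = 0.00693). NUSAP1, ASPM and TOP2A were not called, NUSAP1 being negative in both treatments (−0.13 with FMR4siRNA and −0.23 with CTLsiRNA). Of the chromosomal passenger complex, which corrects faulty attachments, BIRC5 (survivin) rose by 0.19 in FMR4siRNA cells (adjusted p = 0.0479), a call lost without any 1 of 4 arrays. Quantile normalization and array weights ended that call too. With its probe sets averaged, BIRC5 was called in CTLsiRNA cells (0.28, limma adjusted p = 0.00788) and not in FMR4siRNA cells (0.18, limma adjusted p = 0.087). AURKB, INCENP and CDCA8 were not called in either treatment.

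**Figure D2:**
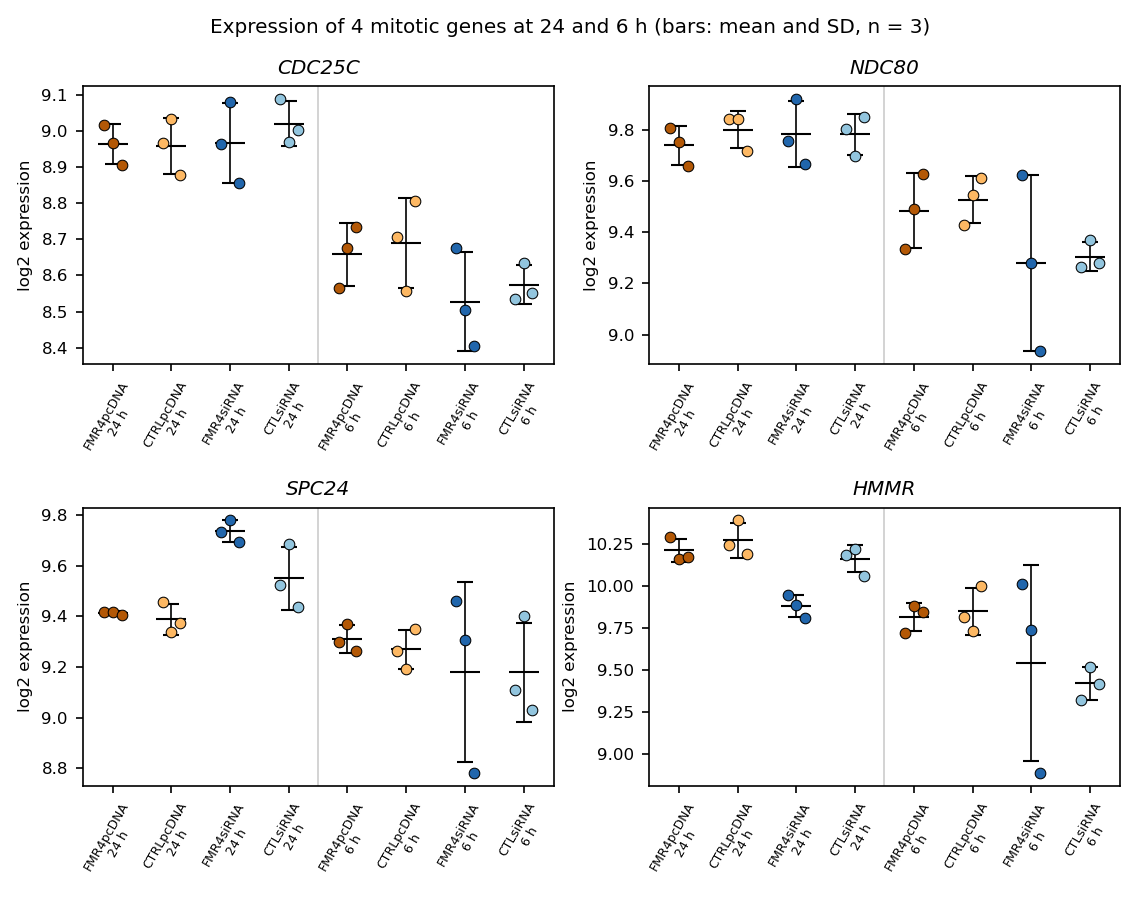
Log2 expression of CDC25C, NDC80, SPC24 and HMMR on each array (points, replicates 1 to 3 from left) in the 8 groups, 24 h left of 6 h, with bars for the mean and SD of 3 arrays. CDC25C is higher at 24 h in every treatment, and the FMR4siRNA 6 h arrays of the other 3 genes are the most spread, with replicate 3 at 8.93, 8.78 and 8.89.

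In the cytokinesis group, RACGAP1, a GTPase regulator of the midzone, rose by 0.22 with FMR4siRNA and 0.23 with CTLsiRNA. CEP55, which recruits the machinery that cuts the bridge, rose by 0.22 with CTLsiRNA (adjusted p = 0.0128), while its value with FMR4siRNA was −0.04. PRC1 fell by 0.17 with CTLsiRNA (adjusted p = 0.037), a call lost without any 1 of the 6 arrays, and its value with FMR4siRNA was 0.14. ANLN, the scaffold of the contractile ring, and ECT2, which activates RhoA there, were called in neither. Of all 36 genes, 17 had a positive difference between times in all 4 treatments, 3 (AURKB, CDCA8 and PTTG1) a negative one in all 4, and 16 mixed signs. This pattern was not counted over all 18417 genes. Taken singly, 9630 of those were positive in FMR4siRNA cells, 8819 in CTLsiRNA cells, 9556 in FMR4pcDNA cells and 10950 in CTRLpcDNA cells.

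In the plasmid arm fewer members differed between times. In FMR4pcDNA cells CDC25C rose and ANLN fell, and in CTRLpcDNA cells CDC25C alone rose. Over all genes 3.3% rose and 3.03% fell in FMR4pcDNA cells, and 3.83% rose and 1.93% fell in CTRLpcDNA cells, and 1 of 36 members is 2.78%, near these shares. CDC25C in FMR4pcDNA cells had 9.02, 8.97 and 8.91 at 24 h and 8.56, 8.68 and 8.74 at 6 h, a rise of 0.31 (adjusted p = 0.0183). In CTRLpcDNA cells it had 8.97, 9.04 and 8.88 at 24 h and 8.71, 8.56 and 8.81 at 6 h, a rise of 0.27 (adjusted p = 0.0383). The arrays of the times did not overlap in either, as for 6151 of all 18417 genes in FMR4pcDNA cells and 5588 in CTRLpcDNA cells. ANLN in FMR4pcDNA cells had 11.41, 11.47 and 11.37 at 24 h and 11.59, 11.61 and 11.65 at 6 h, so that it fell by 0.20 (adjusted p = 0.0317). HMMR was at 0.39 in FMR4pcDNA cells and 0.42 in CTRLpcDNA cells without being called, and NDC80 at 0.26 in FMR4pcDNA cells and 0.27 in CTRLpcDNA cells. The medians over the 36 genes were 0.02 with FMR4pcDNA (0.01 over all genes) and 0.06 with CTRLpcDNA (0.03 over all genes). All of these calls were lost without 1 array or another, so that without 1 array the count ranged over 0 to 1 in both treatments. With array weights, which let noisy arrays count less, 5 members were called in FMR4pcDNA cells and 8 in CTRLpcDNA cells. The calls gained went both ways, with NDC80 and HMMR higher and AURKB lower at 24 h in both treatments. The shares of all genes called with these weights, or without an array, were not counted.

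Whether the change with time differed between the control treatments was tested directly. No member was called for the time change in CTRLpcDNA minus that in CTLsiRNA, where 0.755% of all genes were higher and 0.364% lower. The 3 members of lowest p were BIRC5 (−0.23, adjusted p = 0.206), NUSAP1 (0.39, adjusted p = 0.285) and BUB1 (−0.16, adjusted p = 0.286). Of the 36 differences 31 were negative, with a median of −0.13, against 0.03 over all genes, and 4 had an unadjusted p under 0.05. Over all 18417 genes 7842 were negative and 3113 had such a p. At 6 h, CTRLpcDNA and CTLsiRNA cells also gave no call (1.6% of all genes higher, 1.7% lower). Of the 36 members 12 had an unadjusted p under 0.05, as did 4263 of all 18417 genes. Positive differences numbered 30 among the 36 members and 8341 among all genes. Lowest in p there were CCNB2 (0.29, adjusted p = 0.0654), NUSAP1 (−0.40, adjusted p = 0.0769) and PLK1 (0.29, adjusted p = 0.0892). Under array weights 9 members were called at 6 h, NUSAP1 lower and the others higher in CTRLpcDNA cells. The share of all genes called with these weights was not counted. These controls differ in nucleic acid and in transfection reagent, which cannot be told apart.

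With knockdown at 24 h, 4 of the 36 genes differed, and the 3 of cytokinesis among them went both ways. PRC1 and ANLN were higher and CEP55 and BUB1 lower in FMR4siRNA cells than in CTLsiRNA cells, with differences of −0.34 to 0.42 on the log2 scale. The 2 genes called higher and the 2 called lower are each 5.56% of the list, where 3.43% of all genes were higher and 2.45% lower. Counts of 2 each way in a list of 36 are not set apart from these shares. The median over the members was 0.00, as over all genes, and 18 of the 36 differences were positive. The arrays of the treatments did not overlap for 10 of the 36 members and for 4082 of all 18417 genes.

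PRC1, the microtubule bundler of the central spindle, read 11.79, 11.83 and 11.73 in FMR4siRNA cells and 11.41, 11.31 and 11.38 in CTLsiRNA cells at 24 h. The groups did not overlap, and the difference of 0.42 (SE 0.0555, 1.34-fold, limma adjusted p = 2.77e-05) was the one of lowest p among the members. The CTLsiRNA arrays were also below those of CTRLpcDNA cells, which read 11.69, 11.71 and 11.61, and this difference of 0.31 was the only member call between the controls at 24 h (adjusted p = 0.00172; 2.89% of all genes higher in CTRLpcDNA cells, 1.59% lower). Both comparisons use the same CTLsiRNA arrays, which were the lowest of the 8 groups for PRC1. At 6 h PRC1 read 11.73, 11.62 and 11.56 in FMR4siRNA cells and 11.59, 11.51 and 11.49 in CTLsiRNA cells, and these overlapped.

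ANLN read 11.80, 11.81 and 11.66 in FMR4siRNA cells and 11.55, 11.46 and 11.51 in CTLsiRNA cells at 24 h. The difference was 0.25 (SE 0.0543, 1.19-fold, adjusted p = 0.00551), with no overlap, and was not called in a fit to the 6 arrays alone (adjusted p = 0.0733). CTRLpcDNA cells, at 11.52 ± 0.064, were close to CTLsiRNA cells, at 11.50 ± 0.045 (SD, n = 3 each), for this gene. CEP55 read 10.57, 10.71 and 10.53 in FMR4siRNA cells and 10.94, 10.89 and 11.01 in CTLsiRNA cells. The difference was −0.34, a fold of 0.788 (SE 0.0609, adjusted p = 0.000761), while CTRLpcDNA and CTLsiRNA cells both averaged 10.95. BUB1 read 11.52, 11.49 and 11.44 in FMR4siRNA cells and 11.69, 11.67 and 11.66 in CTLsiRNA cells, a difference of −0.19 (SE 0.0531, adjusted p = 0.032). The BUB1 call was lost without any 1 of 5 of the 6 arrays, with an adjusted p of up to 0.109, while PRC1, ANLN and CEP55 stayed called whichever 1 array was left out.

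**Figure D3:**
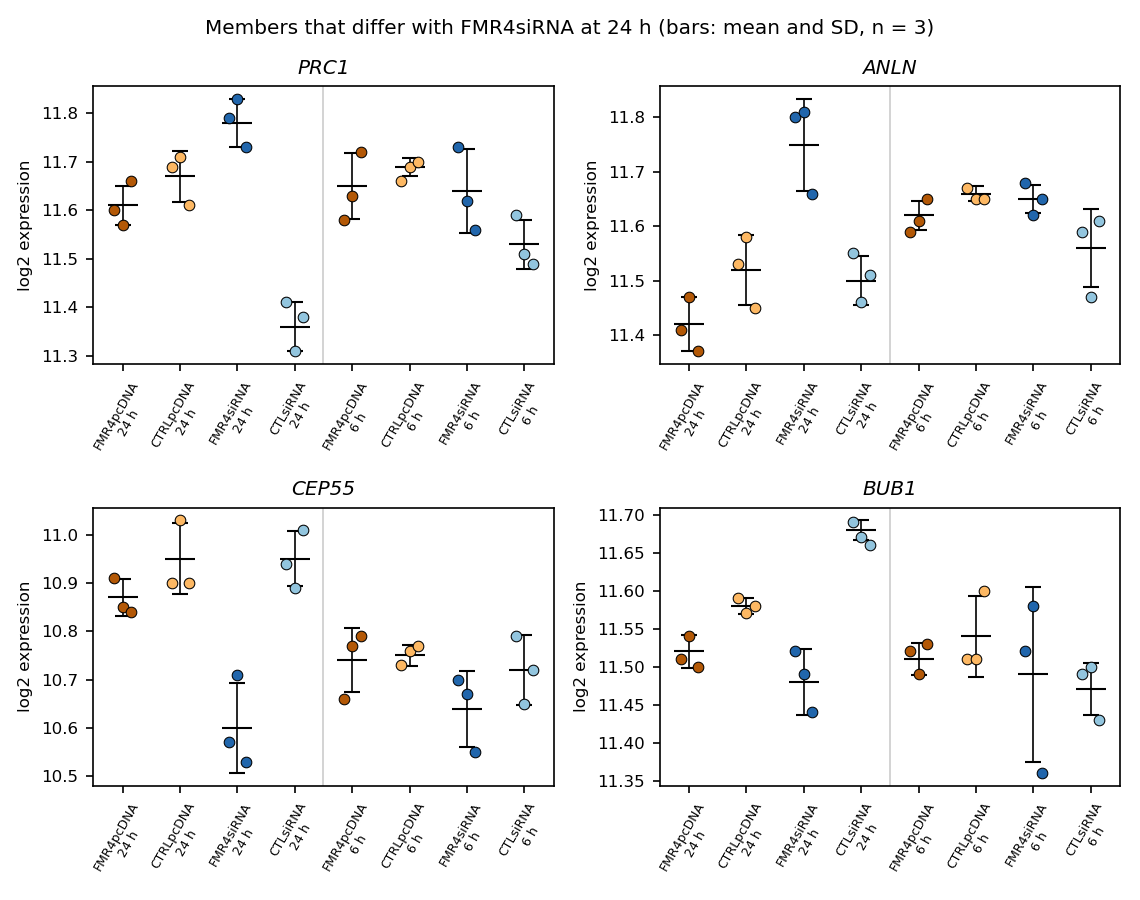
Log2 expression of PRC1, ANLN, CEP55 and BUB1 on each array (points, replicates 1 to 3 from left) in the 8 groups, 24 h left of 6 h, with bars for the mean and SD of 3 arrays. FMR4siRNA and CTLsiRNA arrays do not overlap at 24 h for any of the 4 genes, as for 4082 of all 18417 genes. The CTLsiRNA 24 h arrays are the lowest group for PRC1 and the highest for BUB1.

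The other 32 members were not called with FMR4siRNA at 24 h. AURKB (−0.16, adjusted p = 0.203) and CDK1 (−0.14, adjusted p = 0.277) had the next lowest p. HMMR was at −0.28, with 9.94, 9.88 and 9.81 in FMR4siRNA cells against 10.18, 10.22 and 10.06 in CTLsiRNA cells. At 6 h no member was called (0 of 36, and 0 at an unadjusted p under 0.05), where 0.0326% of all genes were higher and 0.0271% lower. The lowest p at 6 h belonged to PRC1 (0.11), ANLN (0.10) and CEP55 (−0.08), each with an adjusted p of 1. These 3 genes had the same signs at 24 h. Without FMR4siRNA 6 h replicate 3 there were 3 calls at 6 h, HMMR at 0.45 (adjusted p = 0.00577), DLGAP5 at 0.21 and CCNB2 at 0.20, all higher. The share of all genes called without that array was not counted.

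The difference between the knockdown effects at the 2 times was tested as a term of its own, and no member was called. Over all genes 0.717% were higher and 0.467% lower. PRC1 came closest, with 0.31 (SE 0.0784, adjusted p = 0.0555), followed by CEP55 at −0.26 (adjusted p = 0.194) and BUB1 at −0.21 (adjusted p = 0.256). Without FMR4siRNA 6 h replicate 3, 5 members were called, PRC1 at 0.27 and HMMR, AURKA, CEP55 and BUB1 at −0.73, −0.38, −0.31 and −0.27. For HMMR the adjusted p was 0.000801 without that array and 0.572 with all arrays. The share of all genes called without it was not counted.

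Overexpression gave no call among the 36 genes at either time. FMR4pcDNA and CTRLpcDNA cells differed at 24 h in 0% of all genes in either direction, and at 6 h likewise in 0%, with 602 genes at 24 h and 373 at 6 h at an unadjusted p under 0.05. At 24 h 31 of the 36 differences were negative, as were 11845 of all 18417. The median was −0.06 over the members and −0.03 over all genes, and 2 members had an unadjusted p under 0.05. With the arrays centred on their medians, the median over all genes was 0.004. CDK1 read 10.29, 10.39 and 10.30 in FMR4pcDNA cells and 10.50, 10.61 and 10.54 in CTRLpcDNA cells, a difference of −0.22 without overlap (SE 0.0639, adjusted p = 0.999). The arrays of 2210 of all 18417 genes did not overlap there either. ECT2 (−0.13) and NUF2 (−0.12) came next. The 95% intervals of the 36 differences at 24 h reached down to −0.40 and up to 0.27, both for HMMR. At 6 h the members of lowest p were NUF2 (−0.08), CDK1 (−0.07) and CCNB2 (−0.10), each with an adjusted p of 1. The overexpression effect at 24 h minus that at 6 h was called in 0 members and in 0% of all genes either way, with 0 members at an unadjusted p under 0.05 and CDK1 (−0.15), ECT2 (−0.13) and CENPE (−0.14) of lowest p, each with an adjusted p of 1. A miss of the threshold with 3 arrays per group does not show that the levels are equal.

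**Figure D4:**
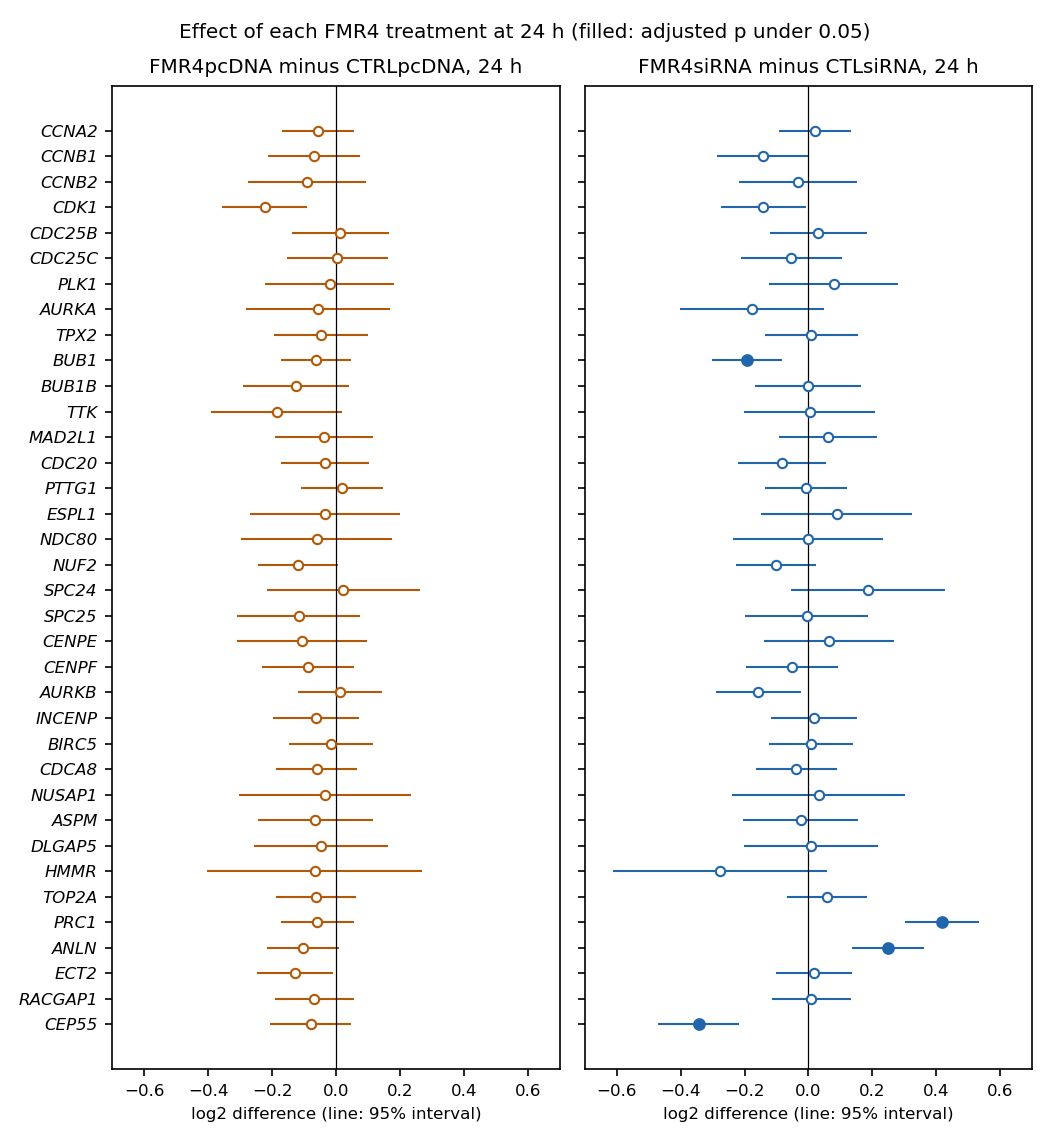
Log2 difference at 24 h of each of the 36 genes between FMR4pcDNA and CTRLpcDNA cells (left) and between FMR4siRNA and CTLsiRNA cells (right), with 95% intervals and filled points where the adjusted p is under 0.05. PRC1 and ANLN are filled right of 0 and CEP55 and BUB1 left of it with FMR4siRNA, and no point is filled with FMR4pcDNA.

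The level of the group as a whole differed between arrays of the same treatment. For each gene the deviation from its mean over 24 arrays was taken, and the median over the 36 genes was −0.21 on FMR4siRNA 6 h replicate 3, the lowest of all arrays, where the median over all genes was −0.01. On that array 8 of the 36 genes (22.2%) were above the mean of their own group, against 49.1% of all genes, while replicate 1 of the group had 31 above it (86.1%, against 56.8%). Replicate 3 of that group also had the lowest array weight of the 24, at 0.154. Plasmid groups held arrays of this kind too, with 2 of 36 genes above the group mean on CTRLpcDNA 24 h replicate 3 and 5 of 36 on FMR4pcDNA 24 h replicate 3, against 31.4% and 47.1% of all genes. On the 3 CTLsiRNA arrays at 24 h the median was between 0.07 and 0.09, and on those at 6 h between −0.09 and −0.07, so these groups did not overlap. In the other treatments the times overlapped. FMR4siRNA replicate 3 at 24 h was at 0.005 and replicate 1 at 6 h at 0.018. CTRLpcDNA replicate 3 was at 0.003 at 24 h and 0.040 at 6 h, and FMR4pcDNA replicate 3 at −0.040 at 24 h and 0.033 at 6 h. Whether cell number, the share of cells in mitosis or handling differed between arrays was not tested.

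**Figure D5:**
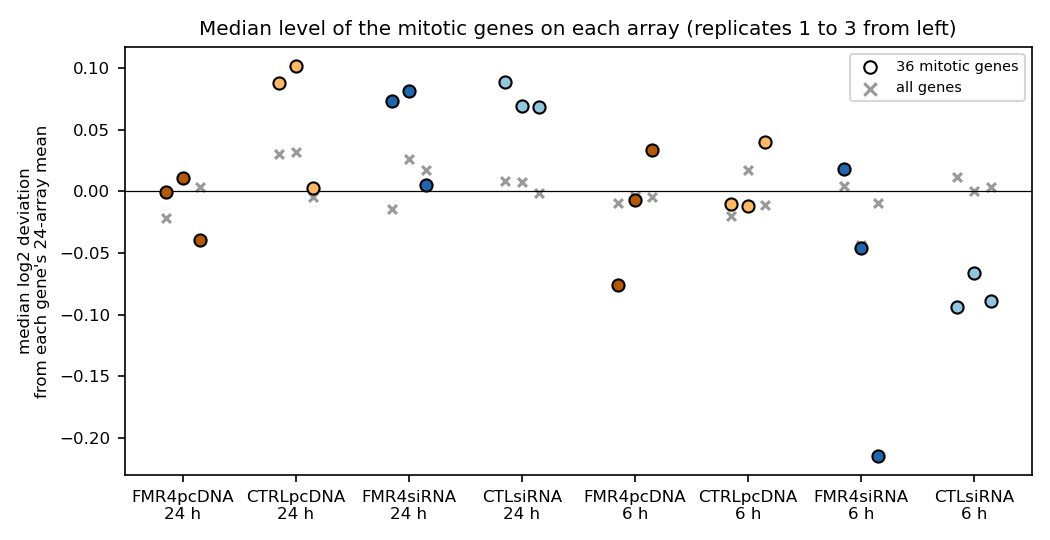
Median over the 36 mitotic genes of the log2 deviation from each gene's mean over 24 arrays (circles), with the same median over all genes (crosses), for replicates 1 to 3 of each group, 24 h left of 6 h. The CTLsiRNA arrays at 24 h lie above all CTLsiRNA arrays at 6 h, while in the other treatments the circles of the times overlap. FMR4siRNA 6 h replicate 3 lies lowest of the 24, at −0.21.

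Other genes of the same machinery were read from lists of their own, to be set against the 12.3% of all genes that rose and 4.37% that fell with time in FMR4siRNA cells and the 9.8% that rose and 8.75% that fell in CTLsiRNA cells. Counts of 1 to 3 genes in a list of 10 to 18 lie near these shares. Of 30 measured genes of the inner kinetochore and its checkpoint adaptors, 9 rose and 0 fell with time in FMR4siRNA cells and 5 rose and 0 fell in CTLsiRNA cells. KNTC1, of the complex that brings dynein to the kinetochore, rose in all 4 treatments, by 0.30 with FMR4siRNA, 0.46 with CTLsiRNA, 0.38 with FMR4pcDNA and 0.40 with CTRLpcDNA. CENPK rose by 0.33 with FMR4siRNA and DSN1 by 0.36 with CTLsiRNA. Of 12 measured genes of abscission, 2 rose and 1 fell with FMR4siRNA and 2 rose and 2 fell with CTLsiRNA, and CIT, the citron kinase of the midbody, rose in all 4 treatments, by 0.27 to 0.40. Of 18 genes of the anaphase-promoting complex 3 rose with FMR4siRNA and 2 with CTLsiRNA, CDC26 by 0.39 with FMR4siRNA and 0.41 with CTLsiRNA. Of 10 genes of the complexes that control the late cell cycle genes, 1 rose and 0 fell with FMR4siRNA and 1 rose and 2 fell with CTLsiRNA. RBL2, the p130 subunit of DREAM, rose by 0.40 with FMR4siRNA and 0.50 with CTLsiRNA. MYBL2, which encodes B-MYB, fell by 0.29 (adjusted p = 0.0409) and RBL1, the p107 relative of RBL2, fell by 0.26 (adjusted p = 0.0483) with CTLsiRNA, while FOXM1 was not called. Of 22 condensin and cohesin genes, 4 rose and 1 fell with FMR4siRNA and 3 rose and 1 fell with CTLsiRNA. Of 12 mitotic kinesins, 1 rose and 1 fell with FMR4siRNA and 3 rose and 2 fell with CTLsiRNA. Of 14 genes of mitotic entry, 3 rose and 0 fell in each of these treatments. Of 19 measured genes of the G1/S transition, 5 rose and 2 fell with FMR4siRNA and 2 rose and 4 fell with CTLsiRNA, so the direction there was mixed.

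With knockdown at 24 h, 2 of the 22 condensin and cohesin genes were lower and 0 higher. Over all genes 3.43% were higher and 2.45% lower, shares that come to about 1 gene or fewer each way in lists of 10 to 30 genes, so counts of 1 or 2 are not set apart from them. SGO2, the shugoshin that protects centromeric cohesin, read 8.93, 8.99 and 8.69 in FMR4siRNA cells and 9.64, 9.63 and 9.56 in CTLsiRNA cells, a difference of −0.74 (SE 0.081, adjusted p = 1.93e-06). Among 12 mitotic kinesins 2 were higher and 1 lower. KIF11, which slides spindle poles apart, was higher by 0.39, with 11.23, 11.24 and 11.07 in FMR4siRNA cells and 10.81, 10.77 and 10.81 in CTLsiRNA cells, and CTRLpcDNA cells were above CTLsiRNA cells by 0.40 (adjusted p = 0.000146). KIF23, the motor partner of RACGAP1 at the midzone, was lower, with 10.99, 10.97 and 10.69 in FMR4siRNA cells and 11.37, 11.22 and 11.33 in CTLsiRNA cells, a difference of −0.42 (adjusted p = 0.000628). Of 14 genes of mitotic entry, MASTL was lower (−0.23) and 0 were higher. In the inner kinetochore list OIP5 (0.30) and BUB3 (0.18) were higher, and of 19 genes of the G1/S transition CCNE2 (0.41) was higher and RRM1 (−0.26) and CCNE1 (−0.24) were lower. CCNE1 was also lower in CTRLpcDNA than in CTLsiRNA cells at 24 h (−0.31, limma adjusted p = 0.00277), on the same CTLsiRNA arrays. None of the abscission, anaphase-promoting complex or late cell cycle transcription genes was called with knockdown at 24 h (limma, 0 of 12, 0 of 18 and 0 of 10), and 2, 2 and 1 of these had an unadjusted p under 0.05. Over all 18417 genes 3021 had such a p, so these counts are not set apart.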

How the data were processed

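Expression was measured in HEK293T cells on 24 arrays, 3 in each of 8 groups, given as Affymetrix Human Gene 1.0 ST in the labels and as version 2.0 in the study's methods. The deposited values are log2 expression, made by the authors by background subtraction and GC-RMA normalization, with software versions not given in the sources used here. They lie between 2.62 and 14.50 and were taken as deposited. The scanner files were not used here. Of 33297 probe sets, 12083 carry no gene in the array annotation and were left out, 19460 carry 1 symbol and 1754 several, and those with several were tested but stand for no gene. The probe set of highest mean stood for a gene.

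A linear model with 1 mean per group was fitted to all arrays (limma 3.58.1 in R 4.3.3, no trend, not robust), which left 16 residual degrees of freedom (22, as the median, once moderated). Tests were two-sided, with Benjamini-Hochberg adjustment within each of 13 comparisons over 21214 named probe sets and a threshold of 0.05, and were checked on simulated data. The 36 genes and the other lists were chosen with earlier results of these data known, so no p was adjusted over a list alone. Named in full are members past the threshold, up to 5 each way by lowest adjusted p, or the 3 of lowest p where none passed, and per-array values are given for up to 12 members. Of the other lists up to 5 genes past the threshold were open to naming. Alternatives were other scalings, a filter on dim probe sets, moderation with a trend and robustly, weights per array, adjustment over all probe sets, averaging the probe sets of a gene, a fit to the groups compared, the replicate number as a block, and each array left out. Promoter letters were searched on both strands of the RefSeq windows with Python 3.11.15, and figures were drawn with matplotlib 3.10.9.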

Additional observations from a re-analysis of the deposited data

Results flagged for a closer look

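No member differed in effect between times or between control treatments past the threshold, but 3 genes of the other lists did by limma's test of the difference itself. SGO2 had a knockdown effect at 24 h minus that at 6 h of −0.65 (SE 0.115, adjusted p = 0.00402). It read 9.38, 9.31 and 9.16 in FMR4siRNA cells and 9.31, 9.40 and 9.42 in CTLsiRNA cells at 6 h, which overlapped, and did not overlap at 24 h. NEFM, a neurofilament gene among the HEK293 markers, had 0.72 for the same term (SE 0.179, adjusted p = 0.0486), with 10.21, 10.23 and 9.99 in FMR4siRNA cells and 9.49, 9.26 and 9.39 in CTLsiRNA cells at 24 h. NEFM fell with time by 0.98 in CTLsiRNA cells (adjusted p = 3.56e-05). It also fell by 0.76 in CTRLpcDNA cells (limma adjusted p = 0.000965) and by 0.81 in FMR4pcDNA cells (limma adjusted p = 6e-04). No change of NEFM with time was called in FMR4siRNA cells. At 24 h CTRLpcDNA cells, at 10.05, were also above CTLsiRNA cells, at 9.38 (difference of 0.67, adjusted p = 0.00264), a comparison that shares the CTLsiRNA arrays. RBL2, the p130 subunit of DREAM, changed less with time in CTRLpcDNA than in CTLsiRNA cells, by a difference of −0.47 (SE 0.115, adjusted p = 0.0489), with means of 9.83 in CTRLpcDNA cells and 10.08 in CTLsiRNA cells at 24 h, and of 9.80 in CTRLpcDNA cells and 9.58 in CTLsiRNA cells at 6 h.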

How the results depend on the processing

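Of the values of members named by the rule, none turned its direction under any alternative run, 613 kept their side of the threshold, 17 passed it and 39 no longer did. Counts of members called moved by over 1.5 times as follows, and the cause was not tested. The shares of all genes called under the alternatives, or with an array left out, were not counted beside them. For 24 h minus 6 h in CTRLpcDNA cells, with 1 call, there were 2 under quantile normalization, 2 under median centring, 2 without dim probe sets, 3 with trend and robust options, 8 with array weights, 0 over all probe sets, 2 in a fit to the groups compared only and 0 with the replicate number as a block. In FMR4pcDNA cells, with 2 calls, there were 5 with array weights, 5 in a fit to the groups compared only and 1 with the replicate block. In FMR4siRNA cells, with 11, there were 0 in a fit to the groups compared only. FMR4siRNA against CTLsiRNA at 24 h, with 4, gave 2 in that fit. The difference of the knockdown effects, with 0, gave 1 without dim probe sets, 1 with trend and robust options and 4 with array weights (PRC1, CEP55, BUB1 and HMMR). CTRLpcDNA against CTLsiRNA at 6 h, with 0, gave 1 with trend and robust options, 9 with array weights, 4 in a fit to the groups compared only and 1 with the replicate block. At 24 h, with 1, it gave 2 under quantile normalization, 3 under median centring and 3 with array weights. The difference of the controls' time changes, with 0, gave 2 with array weights.

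With each array left out in turn, the calls ranged over 0 to 3 for FMR4siRNA against CTLsiRNA at 6 h, 3 to 4 at 24 h, 6 to 18 for time in FMR4siRNA cells, 9 to 13 in CTLsiRNA cells, 0 to 1 in FMR4pcDNA cells, 0 to 1 in CTRLpcDNA cells and 0 to 5 for the difference of the knockdown effects. The extremes of the knockdown at 6 h and of that difference came without FMR4siRNA 6 h replicate 3. Equal replicate numbers are not said to mark shared handling, and in no comparison were all 3 same-number correlations of the arrays' deviations over 0.1. The highest was 0.458, between replicate 3 of FMR4siRNA and of CTLsiRNA cells at 6 h. Replicates 1 and 2 of that comparison gave 0.159 and −0.0726. Whether the arrays numbered 3 shared a source of deviation was not tested. The replicate block ended the calls of BUB1 at 24 h (adjusted p = 0.0719), BIRC5 with time in FMR4siRNA cells, CDC25C in CTRLpcDNA cells and ANLN in FMR4pcDNA cells (adjusted p = 0.0503), and no other member call. Median shifts of all genes under both scalings stayed under 0.1. Precision is limited by 3 arrays per group, and the mean signal of all 36 genes was above the upper quartile of the silent reference genes.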
